A study of Mus musculus with 6 samples.

Results

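The liver X receptors (LXR) and a small set of genes for cholesterol export and lipid handling were followed in mouse alveolar macrophages, the resident phagocytes of the lung airspaces. The set held 8 genes, taken by symbol from the 23413 genes of the deposited count table: the receptors Nr1h3 and Nr1h2, the exporters Abca1 and Abcg1, Apoe, Scarb1, Mylip and Lpcat3. All 8 were in the table and all 8 passed the filter on low counts, which left 10724 genes for testing. The set was selected on its measured levels in the 3 groups, for the opposite responses of Abca1 and Abcg1 to LPS and their shared lower levels with VD3. For these 8 genes the levels and fold changes below are therefore a description, and no p-value is given for them.

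The macrophages were freshly lavaged from wild-type mice, and no allele other than wild type was used. There were 3 groups with 2 libraries each: LPS + VD3 (100 ng/mL lipopolysaccharide with 50 nM vitamin D3 for 4 h), LPS alone (100 ng/mL for 4 h) and control macrophages with no agent. Treatment was in vitro in complete RPMI medium, and the labels do not say whether the control cells were cultured for the same time. Separate mice or cultures behind the 2 libraries of each group are not named in the labels either, and all p-values therefore measure library-to-library spread alone, which could be technical.

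LXRα, encoded by Nr1h3, and LXRβ, encoded by Nr1h2, are nuclear receptors that bind oxysterols and desmosterol and act on DNA as partners of the retinoid X receptors. In macrophages they raise transcription of the cholesterol exporters when sterol accumulates, and they restrain many inflammatory genes. Alveolar macrophages take up surfactant lipid continuously and depend on ABCG1 to export the cholesterol they recover. LPS activates Toll-like receptor 4, and vitamin D in its active form binds the vitamin D receptor, another partner of the retinoid X receptors.

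Of the 8 genes, 6 had an entry among the RefSeq promoters (build GRCm38.p6, 250 bases before to 50 bases after each transcription start). The 250 bases before the start of Abca1 (chr4:53159896-53160145, minus strand, written 5′ to 3′ in the direction of transcription) are shown because they held the only match among these 6 to the LXR element, which is marked in capitals.
Abca1: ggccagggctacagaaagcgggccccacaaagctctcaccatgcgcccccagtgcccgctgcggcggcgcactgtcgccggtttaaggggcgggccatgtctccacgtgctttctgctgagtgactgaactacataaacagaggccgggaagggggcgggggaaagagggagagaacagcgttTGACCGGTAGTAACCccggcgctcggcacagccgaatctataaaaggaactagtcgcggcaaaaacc
The pattern searched was the direct repeat DR4, with the repeats GGTNA and GGTCA separated by 5 unspecified bases, on both strands. In Abca1 it lay on the opposite strand, from 67 to 53 bases before the start. It was found for 1 of the 6 genes of the set and in 0.207% of all 32851 promoters. Genes were counted by a match in any of their promoters, while the shares are of single promoters. Nr1h3 and Apoe had more than 1 promoter. Among 90 related genes with a promoter it was found for Acsl3, Fasn and Srebf1. The repeat DR3 bound by the vitamin D receptor, searched as GGTNA and GGTNA separated by 4 unspecified bases, was in none of the 6 and in 0.685% of all promoters. An E-box, CACGTG, lay from 147 to 142 bases before the Abca1 start and was found in 7.15% of all promoters. The GC box GGGCGG was in the promoters of Abca1, Mylip and Lpcat3 and in 35.7% of all promoters. A loose NF-kB pattern, which can overlap the GC box, was in at least 1 promoter of each of the 6 genes and in 50.8% of all promoters. These matches are letters in a window and say nothing of binding.

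The libraries held 5022314 to 5465223 counts. The LPS + VD3 libraries correlated with each other at r = 0.981, the LPS libraries at 0.969 and the control libraries at 0.991 (Pearson, log2 values over genes). Of 18 alveolar macrophage markers, 15 were in the table and none was at 0. Their summed level was 14080 to 15700 CPM (a gene's counts relative to the library total) in LPS + VD3, 13480 to 14460 CPM in LPS and 12000 to 12280 CPM in control libraries. Single markers differed in direction. Marco averaged 3500 CPM in LPS and 1436 CPM in control libraries, and Car4 2474 and 929.5 CPM. Fabp4, Itgax, Cd9 and Il18 were also higher in LPS. In contrast, Atp6v0d2 averaged 643.6 CPM in LPS and 1869 CPM in control libraries, and Mrc1 968.7 and 1661 CPM. Siglec5, Ear1, Ear2, Pparg, Krt79 and Ctsk were also lower in LPS. Tnf rose after LPS by 6.63 ± 0.22 (log2, SE; adjusted p = 2.77e-08 in edgeR). Cyp24a1, the vitamin D 24-hydroxylase, had 112 and 124 counts in LPS + VD3 libraries, 0 and 0 in LPS libraries, and 2 and 3 in control libraries. In these bulk samples, fewer cells of a type and less RNA per cell cannot be told apart.

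Nr1h3, the LXRα gene (GRCm38, chr2:91184061-91202834, minus strand), was low only in the LPS + VD3 libraries among the 3 groups. Its level, as CPM scaled with TMM factors, was 10.9 and 13.9 in LPS + VD3, 49.0 and 31.6 in LPS, and 36.5 and 28.7 in control libraries. The LPS + VD3 libraries lay below all 4 others, while LPS and control overlapped. The log2 fold change was -1.70 ± 0.27 for LPS + VD3 against LPS, a 3.24-fold lower level, and 0.31 ± 0.24 for LPS against control (SE, n = 2 libraries each). Of the raw counts, 52 and 70 were from the LPS + VD3 libraries, 239 and 156 from LPS and 213 and 179 from control.

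Nr1h2, the LXRβ gene (chr7:44549616-44553951, minus strand), differed less between the groups. It stood at 27.9 and 29.3 CPM in LPS + VD3, 57.5 and 31.6 CPM in LPS, and 25.5 and 25.2 CPM in control libraries. The groups did not overlap, but LPS replicate 1 was far above the rest and LPS replicate 2 was close to the LPS + VD3 libraries. The log2 fold change of LPS against control was 0.81 ± 0.26 and became 0.30 without LPS replicate 1. With VD3 the log2 difference from LPS was -0.64 ± 0.26.

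Per length of exon, Nr1h3 was below Nr1h2 in both LPS + VD3 libraries and above it in the other 4. The ratio of the Nr1h3 level to the Nr1h2 level per length was 0.521 and 0.635 in LPS + VD3, 1.14 and 1.33 in LPS, and 1.91 and 1.52 in control libraries. The 3 groups did not overlap in this ratio.

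Abca1 (chr4:53030787-53159895, minus strand) encodes the transporter that hands cholesterol and phospholipid to lipid-poor apolipoprotein A-I. Its level was 54.2 and 53.2 CPM in LPS + VD3, 143 and 172 CPM in LPS, and 14.6 and 13.8 CPM in control libraries. The 3 groups were fully separate, with LPS highest and control lowest. LPS against control gave a log2 fold change of 3.48 ± 0.18, an 11.1-fold higher level. LPS + VD3 against LPS gave -1.56 ± 0.16, a 2.94-fold lower level, and LPS + VD3 stayed 3.78-fold above control (1.92 ± 0.18 on the log2 scale).

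Abcg1 (chr17:31057675-31117988, plus strand), the transporter that exports cholesterol to mature lipoprotein particles, was lower in each treated group. It had 74.5 and 79.0 CPM in LPS + VD3, 219 and 171 CPM in LPS, and 480 and 495 CPM in control libraries. These groups were also fully separate, but control was highest and LPS + VD3 lowest. The log2 fold change was -1.32 ± 0.16 for LPS against control and -1.34 ± 0.17 for LPS + VD3 against LPS, which are 2.5-fold and 2.53-fold lower levels. LPS + VD3 against control was -2.67 ± 0.17, a 6.34-fold lower level.

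**Figure D1:**
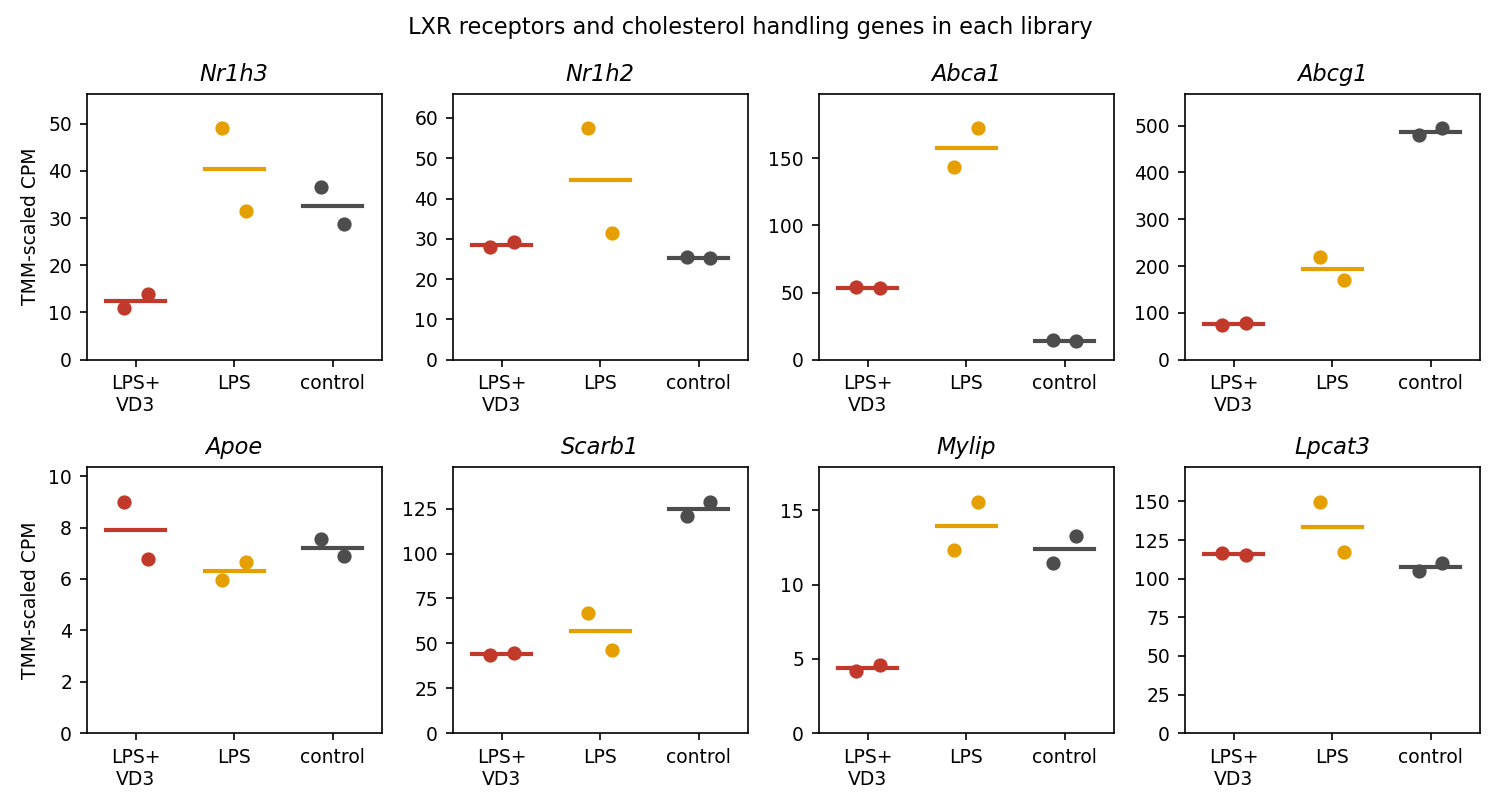
Level of each gene in every library, as CPM scaled with TMM factors, on linear axes starting at 0. Points are libraries and lines are the means of 2 libraries in LPS + VD3, LPS and control; Abca1 was highest in LPS (143 and 172 CPM) and Abcg1 in control (480 and 495 CPM), and the LPS + VD3 libraries were below the LPS libraries for both.

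The 2 exporters were closer in level per length in both treated groups than in control. The level of Abcg1 per length over that of Abca1 was 1.95 and 2.11 in LPS + VD3, 2.16 and 1.41 in LPS, and 46.8 and 50.9 in control libraries. LPS + VD3 lay within the range of the LPS libraries, and both groups were far from control.

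Apoe (chr7:19696109-19699188, minus strand), whose protein accepts exported cholesterol and carries it in lipoproteins, had few counts in every group. Its level was 9.0 and 6.77 CPM in LPS + VD3, 5.95 and 6.68 CPM in LPS, and 7.54 and 6.89 CPM in control libraries. The lower LPS + VD3 library nearly met the higher LPS library, and LPS + VD3 overlapped control. The log2 fold changes were 0.32 ± 0.28 for LPS + VD3 against LPS and -0.19 ± 0.28 for LPS against control.

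Scarb1 (chr5:125277087-125341094, minus strand), which encodes the high-density lipoprotein receptor SR-BI and passes cholesterol in both directions, was lower in both treated groups. It stood at 43.8 and 44.6 CPM in LPS + VD3, 66.9 and 46.5 CPM in LPS, and 121 and 129 CPM in control libraries. Control was clearly apart, while LPS replicate 2 came close to the LPS + VD3 libraries. The log2 fold change was -1.14 ± 0.19 for LPS against control and -0.36 ± 0.20 for LPS + VD3 against LPS. For LPS + VD3 against control it was -1.50 ± 0.19.

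Mylip (chr13:45389742-45412022, plus strand) encodes a ubiquitin ligase that lowers the uptake of lipoprotein cholesterol and is a direct LXR target. Its level was 4.19 and 4.58 CPM in LPS + VD3, 12.3 and 15.6 CPM in LPS, and 11.5 and 13.3 CPM in control libraries. As for Nr1h3, LPS and control overlapped and only the LPS + VD3 libraries stood below both. LPS + VD3 against LPS gave -1.66 ± 0.27, a 3.17-fold lower level, and LPS against control 0.17 ± 0.23. These values rest on 20 and 23 counts in LPS + VD3, 60 and 77 in LPS and 67 and 83 in control libraries.

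Lpcat3 (chr6:124663027-124704418, plus strand), an acyltransferase that puts polyunsaturated chains into membrane phospholipid, varied least together with Apoe. It had 116 and 116 CPM in LPS + VD3, 150 and 118 CPM in LPS, and 105 and 110 CPM in control libraries. The log2 fold change was -0.21 ± 0.16 for LPS + VD3 against LPS and 0.31 ± 0.16 for LPS against control. Lpcat3 shares 334 exon bases with Emg1 on the opposite strand, and whether the counting used strand is not given in the sources used here. Emg1 itself had 346 counts in LPS + VD3, 374 in LPS and 432 in control libraries.

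Over the whole set, LPS + VD3 against LPS called 4 of 8 genes lower (Nr1h3, Abca1, Abcg1 and Mylip) and none higher at an adjusted p under 0.05 in edgeR's quasi-likelihood test; DESeq2 and limma-voom gave the same counts, and at an unadjusted p under 0.05 in edgeR 0 were higher and 5 lower. Over all genes tested 3.83% were called, 1.59% lower and 2.25% higher. The median log2 fold change was -0.99 in the set and 0.00 over all genes. All 8 genes had groups that did not overlap, 7 lower and Apoe higher, against 48.1% of all genes, of which 23.5% were lower and 24.6% higher. The choice of the genes used this contrast, so nothing is read from these counts. Without either one of the LPS + VD3 libraries Abca1 alone of the 4 kept its call, and 94 and 55 genes were called in all.

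LPS against control called 2 genes higher (Abca1 and Nr1h2) and 2 lower (Abcg1 and Scarb1), where 31.8% of all genes were called. Groups did not overlap for 6 of the 8, 3 higher and 3 lower, against 65.2% of all genes (31.6% higher and 33.6% lower). LPS + VD3 against control called Abca1 higher and Nr1h3, Abcg1, Scarb1 and Mylip lower, where 35.0% of all genes were called. There, groups did not overlap for 7 of the 8, 3 higher and 4 lower, against 75.8% of all genes (38.4% higher and 37.4% lower). LPS + VD3 against LPS shares the LPS libraries with LPS against control, and the comparisons with control share the control libraries. These counts are therefore not independent of each other. The choice of the genes used their levels in all 3 groups, so nothing is read from the counts of these comparisons either. The call of Nr1h2 was lost in 11 of 15 alternative analyses, among them leaving out either control library, LPS replicate 1 or either LPS + VD3 library.

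**Figure D2:**
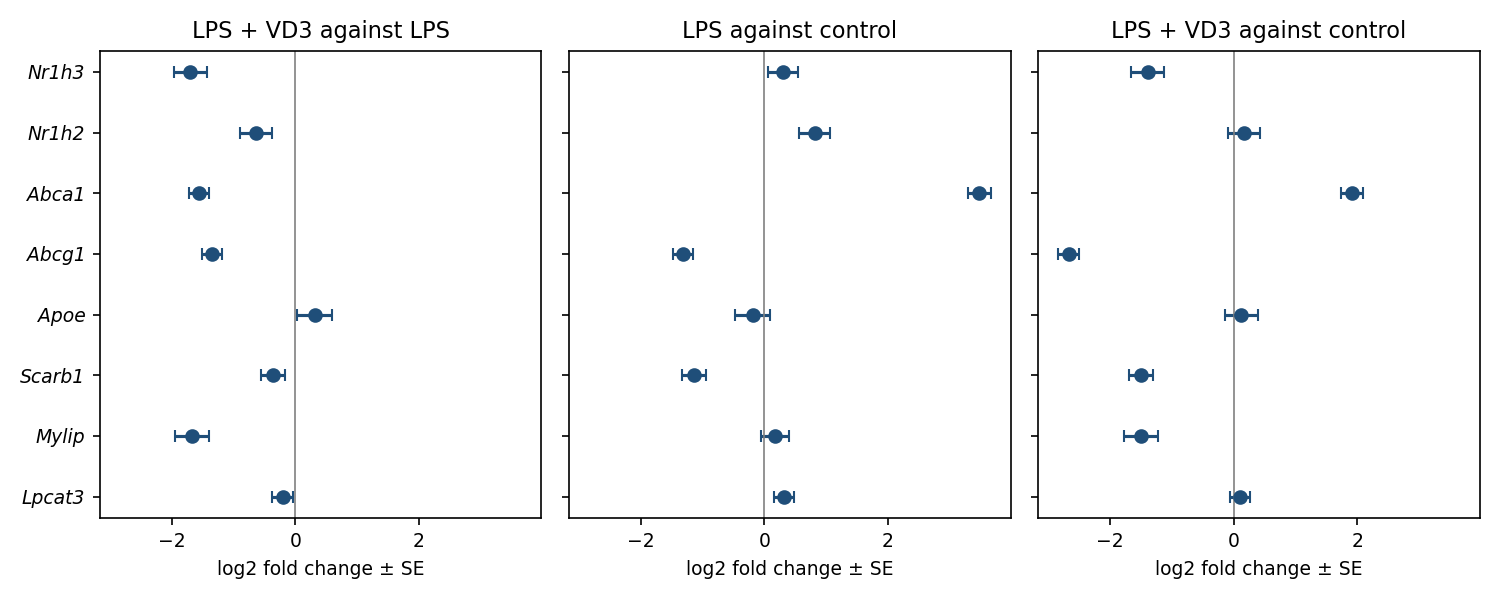
Log2 fold change ± SE of each gene in 3 panels, LPS + VD3 against LPS, LPS against control, and LPS + VD3 against control, from the fit over all 6 libraries. Abca1 and Abcg1 lie on opposite sides of 0 for LPS against control (3.48 and -1.32) and on the same side for LPS + VD3 against LPS (-1.56 and -1.34).

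Against all tested genes, the 4 lower genes lay at the low end of LPS + VD3 against LPS, a contrast used in choosing the set. The share of genes with a lower fold change was 0.56% for Nr1h3, 0.60% for Mylip, 0.76% for Abca1 and 1.32% for Abcg1. In LPS against control, 98.1% of genes had a lower fold change than Abca1 and 7.04% a lower one than Abcg1. The 2 LPS libraries were less alike than those of the other groups, with a median absolute log2 difference over all genes of 0.21 in LPS + VD3, 0.34 in LPS and 0.13 in control. LPS replicate 1 minus LPS replicate 2 was 0.63 for Nr1h3, 0.86 for Nr1h2, 0.36 for Abcg1 and 0.52 for Scarb1, and -0.26 for Abca1 and -0.33 for Mylip, on the log2 scale. The title code of LPS replicate 1 lies apart from the codes of the other 5 libraries, and the labels do not say what the code marks. Without LPS replicate 1, the log2 fold change of LPS + VD3 against LPS was -1.35 for Nr1h3, -1.69 for Abca1, -1.16 for Abcg1 and -1.83 for Mylip.

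The order of the genes by level per length differed between the groups. In LPS + VD3 libraries Lpcat3 led with 35.5 ± 0.21 CPM per kb (SD, n = 2), followed by Abcg1 with 10.5 ± 0.44 and Nr1h2 with 8.51 ± 0.30. Scarb1 with 5.20, Abca1 with 5.18 and Nr1h3 with 4.93 CPM per kb overlapped there, above Apoe with 3.69 and Mylip with 1.36.

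In LPS libraries Lpcat3 (40.9 ± 7.0 CPM per kb) was again above Abcg1 (26.7 ± 4.6). Nr1h3 with 16.0, Abca1 with 15.2 and Nr1h2 with 13.3 CPM per kb overlapped in LPS, and Scarb1 with 6.67, Mylip with 4.31 and Apoe with 2.95 followed, each separate. In control libraries Abcg1 led with 66.7 ± 1.4 CPM per kb, and Lpcat3 with 32.9 ± 1.2 came next. Scarb1 with 14.7 and Nr1h3 with 12.96 overlapped in control, and Nr1h2 with 7.56, Mylip with 3.83, Apoe with 3.38 and Abca1 with 1.37 CPM per kb followed. Abca1 was thus the lowest of the 8 in control libraries and level with the receptor genes in LPS libraries.

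**Figure D3:**
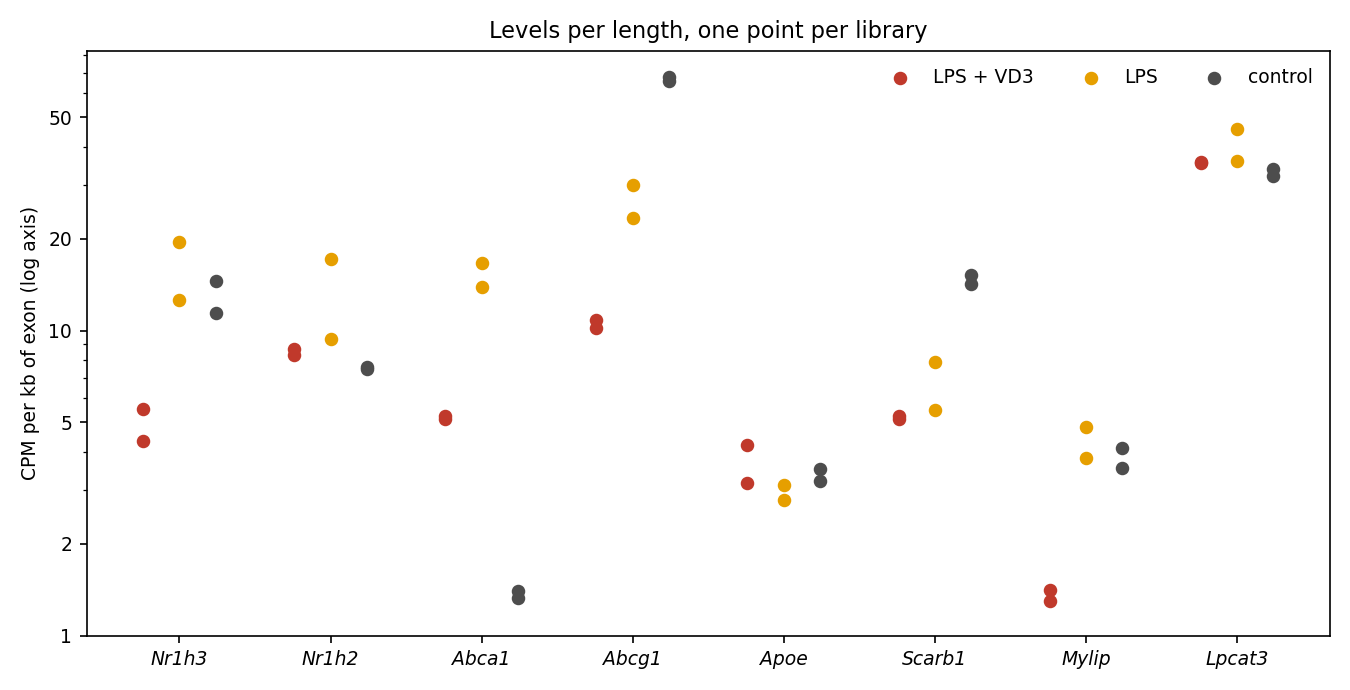
Level of each gene per kilobase of exon in every library of LPS + VD3, LPS and control, on a log axis. Abcg1 was the highest gene in control (66.7 CPM per kb) and Abca1 the lowest (1.37), while Lpcat3 was highest in LPS + VD3 and LPS.

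Within the set, the smallest root mean square differences across the 6 libraries, in log2 CPM centred on each gene's mean, were 0.25 for Nr1h2 and Lpcat3, 0.30 for Apoe and Lpcat3 and 0.33 for Nr1h3 and Mylip. Lpcat3 and Apoe varied little, which alone makes such a difference small. Abca1 and Abcg1 differed by 2.21 on this measure. Among the tested genes outside the set, the 5 with the smallest difference from Abca1 were Adora2b at 0.28, Igtp at 0.29, Ifnb1 at 0.29, AW112010 at 0.31 and Tpbg at 0.32. Ifnb1 and Tpbg had 0 and 0.08 CPM in control libraries, so their closeness depends on the prior count of 2 used for the log. The 5 nearest to Abcg1 were Paqr7 at 0.06, Efcab4a at 0.13, Kcnn3 at 0.14, Grb7 at 0.15 and Kcnn4 at 0.165. Kcnn3 averaged 32.0 CPM in LPS + VD3, 81.5 CPM in LPS and 213 CPM in control libraries. The other 4 were below 20 CPM in every group. Grb7 averaged 0.20 CPM in LPS + VD3, so its closeness also depends on the prior count. Its log2 fold change of LPS + VD3 against LPS was -2.565, beside -1.34 for Abcg1.

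Around the set, 112 genes of 8 pathway lists were examined, of which 86 were tested. In LPS + VD3 against LPS, 4 rose and 3 fell of 86, where 2.25% of all genes rose and 1.59% fell, the shares against which the list counts below stand. The pathway genes had a median log2 fold change of -0.06, against 0.00 over all genes. The SREBP machinery (7 of 7 tested), the other ABCA and ABCG transporters (5 of 17) and the other lysophospholipid acyltransferases (11 of 13) had no gene past the threshold in either direction with edgeR or limma-voom. At an unadjusted p under 0.05 there were 1 gene higher and 2 lower in the SREBP list, 0 and 2 among the transporters and 1 and 1 among the acyltransferases. DESeq2 called 1 SREBP gene lower, Srebf1, and none in the other two lists. The median log2 fold changes of these 3 lists were -0.24, -0.43 and -0.21.

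Of the LXR partners and coregulators, 1 of 17 tested genes rose with VD3 and none fell with edgeR, limma-voom or DESeq2; at an unadjusted p under 0.05 in edgeR, 4 were higher and 1 lower. The riser was Nrip1, which encodes the nuclear receptor corepressor RIP140. It had 183 and 228 CPM in LPS + VD3, 26.5 and 29.1 CPM in LPS, and 42.5 and 47.3 CPM in control libraries. LPS + VD3 lay far above both other groups, with a log2 fold change of 2.89 ± 0.18 against LPS (edgeR adjusted p = 3.95e-05). Rxra, the retinoid X receptor partner, was at 69.3 and 57.9 CPM in LPS + VD3 and 105 and 85.4 CPM in LPS libraries, a log2 difference of -0.58 ± 0.17 that did not pass (adjusted p = 0.0994).

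Of the other LXR target genes, 1 of 15 tested rose with VD3 and none fell with edgeR or limma-voom, while DESeq2 called 1 lower; at an unadjusted p under 0.05 in edgeR, 3 were higher and 1 lower. The riser, Ttc39b, encodes a protein that promotes LXR degradation in mouse. Ttc39b had 241 and 260 CPM in LPS + VD3, 91.9 and 98.7 CPM in LPS, and 116 and 129 CPM in control libraries, a log2 fold change of 1.39 ± 0.15 against LPS (edgeR adjusted p = 0.000915). Srebf1, the LXR target that drives fatty acid synthesis and whose promoter held a DR4 match, had 28.9 and 20.7 CPM in LPS + VD3, 65.7 and 35.2 CPM in LPS, and 48.3 and 39.1 CPM in control libraries. Its log2 difference between LPS + VD3 and LPS was -1.03 ± 0.30 and did not pass in edgeR (adjusted p = 0.0937). It also did not pass in limma-voom (adjusted p = 0.12) or in edgeR without a filter (adjusted p = 0.233). It passed in DESeq2 (adjusted p = 0.0258) and in edgeR with the replicate number as a block (adjusted p = 0.00637). The difference was -0.52 without LPS replicate 1 and -1.40 without LPS replicate 2.

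Among the enzymes that make or break down LXR ligands, 3 of 7 were tested. Ch25h, which makes 25-hydroxycholesterol, was at 836 and 692 CPM in LPS + VD3, 892 and 606 CPM in LPS, and 99.7 and 114 CPM in control libraries. It rose with LPS, with a log2 fold change of 2.81 ± 0.21 (edgeR adjusted p = 5.73e-06), and LPS + VD3 differed from LPS by 0.03 ± 0.20 (adjusted p = 0.945). Hsd3b7, a sterol dehydrogenase of bile acid synthesis that also acts on oxysterols derived from 25-hydroxycholesterol, fell with VD3 by 0.91 ± 0.18 (log2, edgeR adjusted p = 0.0252). This call was lost without a filter and with the compared libraries only. Hsd3b7 was also lower in LPS against control, at -0.60 ± 0.17 (edgeR adjusted p = 0.0227). Cyp27a1, which makes 27-hydroxycholesterol, had 27 counts over all 6 libraries and was not tested.

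Of the remaining lists, 1 of 11 lipoprotein and scavenger receptors rose with VD3 and 1 fell, beside 2.25% and 1.59% of all genes. Olr1, the receptor for oxidized LDL, rose by 0.82 ± 0.19 (log2; edgeR adjusted p = 0.0449), a call lost with RLE size factors, without a filter, with the compared libraries only, and without either control or either LPS + VD3 library. In the same list Cxcl16, a chemokine that also binds oxidized lipoprotein, fell by 0.93 ± 0.17 (adjusted p = 0.0129). Of 18 sterol storage and transport genes, Osbpl8 rose by 1.08 ± 0.23 (adjusted p = 0.0331) and Gramd1a fell by 1.41 ± 0.24 (adjusted p = 0.00997); both were named after their values were seen. Osbpl8 encodes an oxysterol-binding-protein relative, and Gramd1a a carrier of cholesterol from the plasma membrane to the endoplasmic reticulum. Without either LPS + VD3 library, Nrip1 and Ttc39b were the pathway genes that kept their call, and 2 genes were higher and none lower.

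LPS alone moved more of the pathway genes: 11 rose and 23 fell of 86, where 15.7% of all genes rose and 16.2% fell. The LXR target list had 1 riser and 7 fallers among 15 tested genes, with a median log2 fold change of -0.96, against 0.01 over all genes. Scd2, a stearoyl-CoA desaturase, fell to 34.3 and 38.2 CPM in LPS libraries, against 413 and 433 CPM in control libraries (log2 -3.54 ± 0.16, edgeR adjusted p = 1.90e-07). Eepd1 fell by 1.97 ± 0.22 (log2; adjusted p = 7.17e-05) and Elovl5, a fatty acid elongase, by 1.51 ± 0.17 (adjusted p = 9.68e-05). With no scaling beyond library size 38 of the 86 genes fell, the median log2 fold change of all genes moved to -0.29, and 26.2% of all calls were higher, against 49.2% with TMM factors.

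Of the 17 LXR partners and coregulators tested, 1 rose and 4 fell with LPS, where 15.7% of all genes rose and 16.2% fell. Rxra fell to 105 and 85.4 CPM in LPS libraries, against 205 and 202 CPM in control libraries (log2 -1.10 ± 0.17, edgeR adjusted p = 0.000662). Ncoa1, a coactivator, fell by 1.00 ± 0.18 (adjusted p = 0.00195), and Crebbp, a histone acetyltransferase, rose by 0.72 ± 0.19 (adjusted p = 0.0152). Ncor1, a corepressor, did not pass in LPS against control (-0.26 ± 0.18) or in LPS + VD3 against LPS (0.40 ± 0.18). Of the lipoprotein-handling LXR targets, Lpl was at -0.19 ± 0.17 and 0.18 ± 0.17 and Pltp at -0.16 ± 0.25 and -0.37 ± 0.27 in these 2 comparisons, and Npc1, the lysosomal cholesterol exporter, at -0.36 ± 0.14 and -0.07 ± 0.14, none of them past the threshold.

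Of the 18 sterol storage and transport genes tested, 3 rose and 4 fell with LPS. Over all genes 15.7% rose and 16.2% fell, the shares beside which the counts of this paragraph stand. Soat1, which esterifies cholesterol for storage, fell by 1.64 ± 0.17 (log2; edgeR adjusted p = 4.42e-05), and Nceh1, which hydrolyses the stored ester, fell by 2.33 ± 0.16 (adjusted p = 2.88e-06). Stard5, a sterol carrier, rose by 1.44 ± 0.16 (adjusted p = 8.98e-05) and Gramd1b by 1.82 ± 0.23 (adjusted p = 0.000173). Of the 11 lipoprotein and scavenger receptors tested 3 rose and 2 fell. Cxcl16 was higher by 4.39 ± 0.20 (edgeR adjusted p = 2.05e-07) and Marco by 1.29 ± 0.15 (adjusted p = 9.72e-05). Lrp8 was lower at -1.52 ± 0.20 (adjusted p = 0.00028). Among the 11 tested acyltransferases related to Lpcat3, 2 rose and 3 fell. Lpcat2 rose by 1.87 ± 0.19 (edgeR adjusted p = 4.36e-05) and Lpcat1 fell by 2.02 ± 0.30 (adjusted p = 0.000602). Among the transporters related to Abca1 and Abcg1, 5 of 17 were tested and Abca2 fell by 0.75 ± 0.18 (adjusted p = 0.0104).

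**Figure D4:**
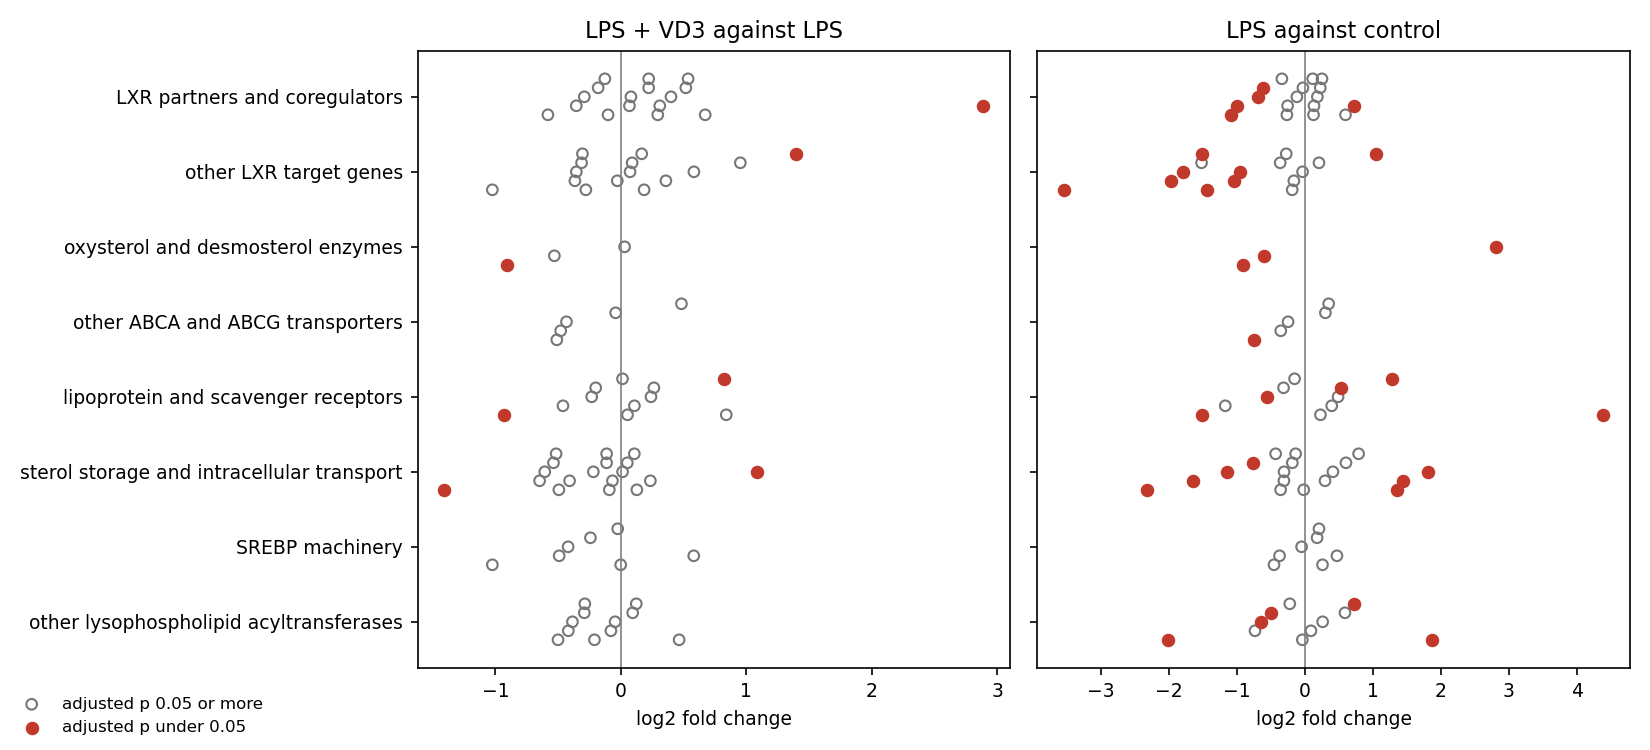
Log2 fold change of each tested gene of the 8 pathway lists in LPS + VD3 against LPS and in LPS against control; filled points passed an adjusted p under 0.05. With VD3, 4 genes rose and 3 fell, with Nrip1 (2.89) and Ttc39b (1.39) farthest to the right, and with LPS 11 rose and 23 fell.

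In LPS + VD3 against control, 15 of the 86 pathway genes rose and 22 fell, where 17.7% of all genes rose and 17.3% fell. This comparison shares its libraries with both others. Without scaling 39 pathway genes fell, and 25.9% of all calls were higher, against 50.6% with TMM factors. With TMM factors the LXR target list had 2 risers and 7 fallers there among 15 tested genes. The sterol storage and transport list had 3 and 7 among 18.

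Markers of other cells also differed between the groups. The 11 epithelial markers summed to 51.3 to 60.1 CPM in LPS + VD3, 46.9 to 47.4 CPM in LPS and 258 to 281 CPM in control libraries, with Sftpc at 0; Cdh1 made up most of this, at a mean of 43.6 CPM in LPS + VD3, 33.1 CPM in LPS and 230 CPM in control libraries. The sum was highest in control, and it was higher in LPS + VD3 than in LPS. The 7 monocyte markers summed to 2594 to 3082 CPM in LPS + VD3, 1944 to 2195 CPM in LPS and 700 to 703 CPM in control libraries, with 2 of them at 0 and Fn1 the most abundant. Fn1 averaged 2644 CPM in LPS + VD3, 1751 CPM in LPS and 691 CPM in control libraries and made up most of the monocyte sum. In the same order Vcan averaged 193, 317 and 3.56 CPM, and Ccr2 0.20, 0.81 and 6.67 CPM. Of the 11 neutrophil markers 10 were in the table, 4 of them at 0. Their sum was 72.4 to 80.6 CPM in LPS + VD3, 53.4 to 64.3 CPM in LPS and 61.0 to 64.9 CPM in control libraries. Of the 11 lymphocyte markers 10 were in the table, 3 of them at 0. Their sum was 12.8 to 19.5 CPM in LPS + VD3, 14.0 to 15.4 CPM in LPS and 34.5 to 38.7 CPM in control libraries. The 7 dendritic cell markers summed to 34.8 to 41.4 CPM in LPS + VD3, 39.5 to 41.7 CPM in LPS and 22.6 to 29.5 CPM in control libraries. Cd2 made up most of the lymphocyte sum. It averaged 14.2 CPM in LPS + VD3, 12.9 CPM in LPS and 35.3 CPM in control libraries. In the same order Cd3d averaged 1.71, 1.63 and 0.42 CPM. Among the dendritic cell markers Clec9a averaged 5.69, 4.99 and 19.3 CPM, and Ccl22 23.1, 29.35 and 5.13 CPM. Members of the monocyte, lymphocyte and dendritic cell lists thus differed in direction. The 8 stromal and endothelial markers stayed under 8 CPM, and the erythroid markers were at or near 0. The part of these cells in the levels of the LXR set was not tested.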

How the data were processed

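RNA-seq libraries of 6 samples were analysed. Per the labels' protocols, RNA was prepared with a Qiagen RNeasy Micro kit and libraries with a KAPA mRNA HyperPrep kit; per the submitters' processing notes, TopHat2, edgeR and build mm10 were used. The authors deposited a table of raw counts per gene and a table of log2 values; the deposited log2 values equalled log2(CPM + 1) of the counts within 0.00423 for 10327 genes matched between the tables. For the counting program, annotation and strand setting no source used here gives an entry.

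Counts were filtered with filterByExpr (minimum count 10, minimum total 15), scaled with TMM factors and fitted over all 6 libraries with edgeR 4.0.16 (R 4.3.3; glmQLFit, glmQLFTest; 3 group means, two-sided), with Benjamini-Hochberg adjustment over 10724 genes at 0.05. CPM per kb used GENCODE exon lengths. Alternatives used RLE or no scaling, no filter, DESeq2 1.42.0, limma-voom 3.58.1, compared libraries only, a replicate term, the deposited log2 table, and each library left out. The fit was tested on simulated data. The 8 genes, the lists and the alternatives were chosen with earlier results of these data known. Named pathway genes were up to 4 per list with the smallest p among those that passed in LPS against control or LPS + VD3 against LPS, and Rxra, Ncor1, Srebf1, Ch25h, Cyp27a1, Soat1, Npc1, Pltp and Lpl; 1 further gene of the rule is not reported here.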

Additional observations from a re-analysis of the deposited data

How the results depend on the processing

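Abca1 kept its direction and its side of the threshold in all 3 comparisons under all 15 alternatives, as did Abcg1 and Scarb1 against control. The set was chosen on these levels, so this describes the dependence on processing only. Leaving out one library at a time, LPS + VD3 against LPS called 55 to 3670 genes, the fewest without LPS + VD3 replicate 2 and the most without LPS replicate 2, and 2 to 14 pathway genes were higher and 0 to 21 lower. The log2 fold changes then ranged from -1.97 to -1.35 for Nr1h3, -1.50 to -1.16 for Abcg1, -1.83 to -1.48 for Mylip, -1.004 to -0.15 for Nr1h2, -0.59 to -0.085 for Scarb1 and -0.37 to -0.030 for Lpcat3. LPS against control called 1940 to 4829 genes, with 8 to 20 pathway genes higher and 15 to 32 lower, and ranged from 0.30 to 1.18 for Nr1h2, -0.063 to 0.59 for Nr1h3, -0.012 to 0.31 for Mylip and 0.11 to 0.48 for Lpcat3. LPS + VD3 against control called 2126 to 5410 genes, with 10 to 20 pathway genes higher and 15 to 31 lower, and Apoe ranged from -0.088 to 0.29.

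Without a filter on low counts, LPS + VD3 against LPS called 169 genes, with 2 pathway genes higher and 0 lower, and Nr1h3 lost its call at -1.70. With the compared libraries only it called 258 genes, and with DESeq2 5 pathway genes were lower. The call of Nr1h2 in LPS against control was lost at 0.52 without scaling, 0.82 without a filter, 0.75 with limma-voom, 0.82 with the compared libraries only, and 0.45 and 0.46 with the deposited log2 table at pseudocounts of 1 and 0.5. Without scaling and with the deposited table at these 2 pseudocounts, the pathway genes called lower were 38, 36 and 36 in LPS against control and 39, 39 and 39 in LPS + VD3 against control, and the share of calls that were higher fell to 26.2, 24.7 and 24.9% against 49.2%, and to 25.9, 24.2 and 24.3% against 50.6%. In the same order, signs turned for Mylip (-0.13, -0.11 and -0.12) and Srebf1 (-0.087, -0.14 and -0.14) in LPS against control, and for Nr1h2 (-0.16, -0.14 and -0.14), Apoe (-0.20, -0.18 and -0.19) and Lpcat3 (-0.22, -0.21 and -0.21) in LPS + VD3 against control. Nr1h3 in LPS against control turned to -0.0026 and -0.0029 with the deposited table, and Ch25h in LPS + VD3 against LPS to -0.0050 without scaling. The cause was not tested.

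Of 930 values of 31 named pathway genes under the alternatives, 835 kept direction and side of the threshold. Signs also turned on leaving out one library in LPS against control for Pltp (-0.44 to 0.055), Srebf1 (-0.33 to 0.59) and Osbpl8 (-0.035 to 0.73). In LPS + VD3 against LPS they turned for Lpl (-0.0080 to 0.40), Ch25h (-0.22 to 0.33), Soat1 (-0.31 to 0.11), Ncoa1 (-0.35 to 0.0064), Scd2 (-0.12 to 0.056), Lpcat1 (-0.31 to 0.27), Agpat1 (-0.20 to 0.46) and Marco (-0.071 to 0.16).

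The labels write the LPS + VD3 libraries as LPS1 and LPS2 plus VD3 but do not say that a number marks a shared mouse, culture or day, and the differences of replicate 1 and 2 correlated across genes at 0.172 between LPS and control, 0.196 between LPS + VD3 and LPS and 0.0894 between LPS + VD3 and control. With the replicate number as a block, 1152 genes were called in LPS + VD3 against LPS, 6 pathway genes of them lower, and Srebf1 (-0.99, adjusted p = 0.00637) and Rxra (-0.58, adjusted p = 0.0303) passed there; 3986 genes were called in LPS against control and 4432 in LPS + VD3 against control. With 2 libraries a group and 62 to 87 counts per group, differences of Apoe of the size of its SE were not detectable.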
